A study of Mus musculus with 12 samples.

Results

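The small intestine of mice carrying 1 altered copy of Zip4 was compared with that of wild-type mice, all fed 15 ppm zinc. The comparison takes the 4 libraries labelled heterozygous (HET) and the 4 labelled wild type (WT), 8 of the 12 libraries of the series, and pools the 2 organic zinc complexes of the diet, in which zinc is attached at the amino or at the hydroxy end. Each of these 8 libraries comes from the whole small intestine of 1 C57BL/6 male, flash frozen at sacrifice. Each genotype had 2 mice on each complex. The HET mice on the amino complex were 363 and 141 days old and those on the hydroxy complex 338 and 143 days old, whereas the WT mice were 210 to 237 days old. No HET mouse therefore shared its age with a WT mouse, and the 2 older and the 2 younger HET mice were also compared with WT separately. The labels write the genotype as Zip4 het and do not say which bases of the gene are altered, how the allele was made, or whether HET and WT mice were littermates. The 4 knockout (KO) libraries come from mice of 198 to 240 days, whose sex labels differ within the amino group. Their sample labels give 40 ppm zinc, although the design text of the series gives 15 ppm for all mice. The KO libraries enter below only through the shared estimate of the spread and as ranges beside some values.

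Zip4 is the product of Slc39a4, a zinc importer of the apical membrane of intestinal absorptive cells, and loss of human ZIP4 causes acrodermatitis enteropathica, an inherited zinc deficiency. Zinc that enters the cell is bound by metallothioneins and leaves it through exporters such as ZnT1, the product of Slc30a1, and metallothionein transcription follows intracellular zinc through the zinc-sensing transcription factor MTF1. When zinc is scarce, Zip4 messenger RNA and protein are stabilised.

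Depth was 26.0 to 38.7 M reads per library in HET and WT, so that 3 reads, the limit that a count of 0 allows, correspond to 0.0774 to 0.115 CPM (reads scaled to library size), a limit that covers counting error only. The library of the 141-day HET mouse on the amino complex listed 1542 genes at 0, the most of all libraries (480 to 1542). Fabp6, a bile acid binding protein of the ileum, stood at 99.3 CPM in that mouse and at 259 CPM in 1 WT mouse on the hydroxy complex, and below 1 CPM in the other HET and WT mice. The median SD of a gene was 0.33 on the log2(CPM + 1) scale in the 4 HET libraries and 0.24 in the 4 WT libraries. Within the 2 older HET libraries it was 0.13 and within the 2 younger 0.24. At the same spread a median SD from 2 libraries comes out lower than one from 4. The pairs can therefore be set beside each other but not beside the groups of 4. Nothing in the labels says that mice of a group came from separate litters or cages, and p-values measure the spread between these samples. In whole tissue, fewer cells of a type and less RNA per cell cannot be told apart.

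Slc39a4 itself did not differ between HET and WT beyond the spread. Slc39a4 (chromosome 15, 76612383 to 76616852, mm10) stood at 117 and 145 CPM in older HET mice, at 249 and 267 CPM in the younger, and at 256, 218, 256 and 188 CPM in WT. Both older HET mice lay below all WT mice and both younger HET mice within or just above the WT range, so the groups overlapped. Mean levels were 195 ± 74.4 CPM in HET and 229 ± 33.1 CPM in WT (SD, n = 4 each), and the exact permutation test, two-sided, gave p = 0.429 (smallest possible 0.0286). On the log2(CPM + 1) scale, on which every fold change below is given, the difference was −0.31 (SE 0.28, limma adjusted p = 0.649) for all HET mice, −0.80 (adjusted p = 0.127) for the older and 0.18 (adjusted p = 0.74) for the younger. KO mice held 42.0 to 91.6 CPM. Since the altered part of the gene is not given, these values do not by themselves check the HET label.

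Genes of zinc handling were not separated by genotype. Mt1, a metallothionein, stood at 36.3 and 22.5 CPM in older HET mice, 68.7 and 35.7 CPM in the younger and 28.4, 44.1, 26.5 and 50.1 CPM in WT, with overlapping groups (exact two-sided permutation p = 0.8). Mt2, its neighbour on chromosome 8, overlapped likewise at 2.19 to 10.3 CPM in HET and 1.74 to 7.18 CPM in WT (exact two-sided permutation p = 0.6). Slc30a1, the basolateral zinc exporter, stood at 24.7 and 24.95 CPM in older HET mice, 57.6 and 33.9 CPM in the younger and 21.2 to 33.7 CPM in WT. None of the 12 tested ZIP importers and none of the 8 tested ZnT exporters passed in any of the comparisons. Their median differences between HET and WT were 0.02 and −0.05, beside 0.08 over all 14001 genes tested, and the sign for the importers turned with median-ratio scaling (−0.06) and quantile normalization (−0.08).

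Across all genes, HET and WT showed a shift in many genes that single-gene tests did not call. In limma, 0 of 14001 genes passed an adjusted p of 0.05 (0%), 2137 had an unadjusted p under 0.05 (1330 higher and 807 lower in HET), and the smallest adjusted p was 0.0732, that of Rpl3. Each HET group of this fit holds 1 older and 1 younger mouse, so the spread used includes the difference between them. With age as covariate 3 genes passed, Apobec3, D730005E14Rik and Rpl3. In 818 genes every HET library lay above every WT library (5.84%), and in 534 every HET library lay below (3.81%). With median-ratio scaling these shares were 4.55% and 4.31%. Most such differences were small. The 818 genes had a median log2 difference of 0.52 and 37 of them reached 1, while the 534 had a median of −0.49 and 17 reached −1. Of the 818 genes 6 reached 1.5, namely Apobec3, Cbx7, Rpl3, D730005E14Rik, Ptgs2 and Ch25h, of which the first 4 lie on chromosome 15. Of the 534, 5 reached −1.5, namely Angptl4, Smim22, Spink1, Crip1 and AA467197. Without the 363-day HET mouse 109 genes passed (20 higher and 89 lower).

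The direction of a gene's difference went with its length. Genes in which every HET library was above WT had a median exonic length of 7.37 kb, those with every HET library below had 2.24 kb, and all genes tested had 4.43 kb. In the quintile of genes with the least exonic length (median 1.74 kb) the median log2 difference was −0.17. It was −0.01, 0.07 and 0.16 in the next quintiles and 0.29 in the longest (median 9.84 kb). Of the shortest quintile, 1.01% of genes had every HET library above WT and 10.3% had every one below, against 14.1% and 0.470% of the longest quintile. The slope was present in both complexes, with medians of −0.22 and 0.43 in the shortest and longest quintiles within amino and of −0.13 and 0.15 within hydroxy.

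Single libraries differed in this respect. Relative to the mean over the 12 libraries, the longest quintile exceeded the shortest by 0.42 and 0.27 in the older HET mice and by 0.70 and 0.05 in the younger. The 4 WT libraries stood at −0.08, −0.15, −0.23 and −0.00 and the KO libraries at −0.52 to −0.01. All 4 HET libraries were thus above all WT libraries, that of the 143-day mouse by little and that of the 141-day mouse by the most. The part of gene length in the differences of single genes and lists was not tested beyond refits in which the median of each of 10 length classes was taken out of each library, an alternative chosen after the data were seen. In that refit 0 genes passed for HET against WT, and 1453 rather than 2137 had an unadjusted p under 0.05.

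**Figure D1:**
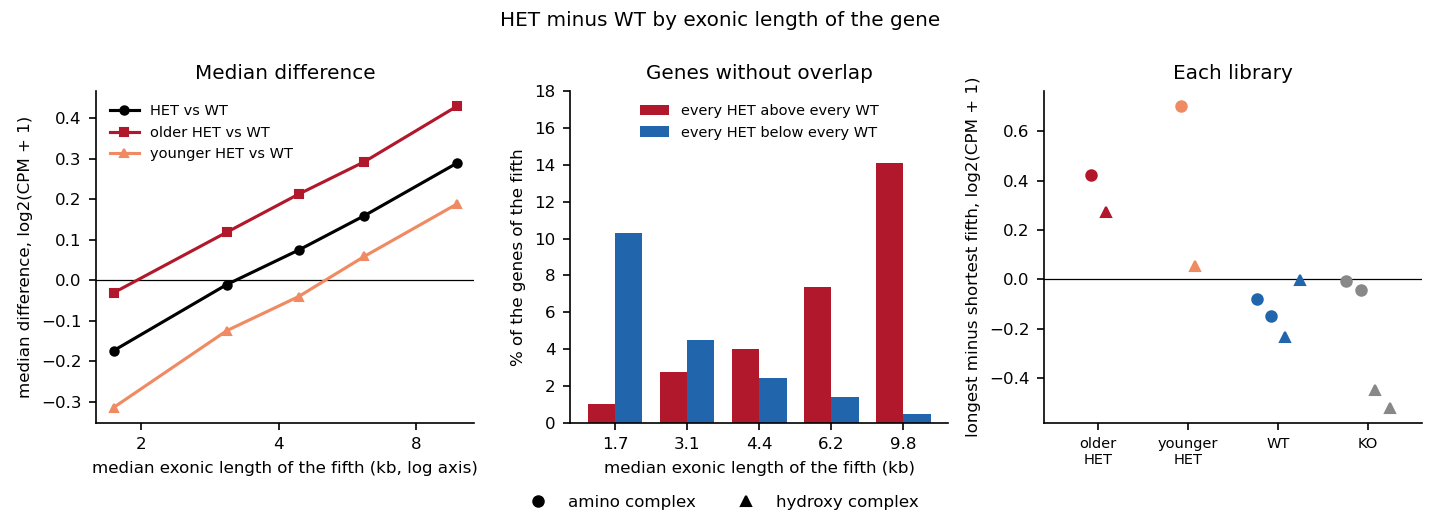
Left, median HET minus WT difference in log2(CPM + 1) in each quintile of genes by exonic length, for all HET mice and for the older and younger ones. Middle, the percentage of genes of each quintile in which every HET library lay above (red) or below (blue) every WT library, from 1.01% to 14.1% above and from 10.3% to 0.470% below. Right, longest minus shortest quintile in each library, circles amino and triangles hydroxy, with the 4 HET libraries at 0.05 to 0.70 and the WT libraries at −0.23 to −0.00.

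Among the genes without overlap, Apobec3, Cbx7, Rpl3 and D730005E14Rik differed strongly between HET and WT, and they are close neighbours on chromosome 15, 3.28 to 3.47 Mb from Slc39a4. Apobec3 encodes a cytidine deaminase that restricts retroviruses, Cbx7 a chromodomain protein of Polycomb repressive complex 1, and Rpl3 a protein of the large ribosomal subunit. In all 4 genes every HET library exceeded every WT and every KO library. The raised genes were not an unbroken run. Pdgfb, which lies between Cbx7 and Rpl3, stood at 0.57 and Syngr1, next to Rpl3, at 0.18, both with overlapping HET and WT libraries.

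Apobec3 (79892408 to 79908429, mm10) stood at 13.7 and 15.7 CPM in older HET mice, 26.0 and 19.3 CPM in the younger, 1.80, 4.08, 3.17 and 3.41 CPM in WT and 3.04 to 6.08 CPM in KO. The lowest HET library was above the highest of the other genotypes. The log2 difference from WT was 2.25 (SE 0.28, limma adjusted p = 0.0858) over all HET mice, and Apobec3 rose in both age classes, by 1.97 (adjusted p = 0.0125) in the older and 2.54 (adjusted p = 0.00852) in the younger. Rpl3 (80077781 to 80083406) stood at 3.65 and 3.65 CPM in older HET mice, 7.27 and 3.38 CPM in the younger, 0.316, 0.468, 0.288 and 0.262 CPM in WT and 0.279 to 0.780 CPM in KO. The HET mice did not overlap the others, and 1 younger mouse was above its 3 peers. The difference was 1.99 (SE 0.22, adjusted p = 0.0732) over all HET mice, 1.80 (adjusted p = 0.0107) in the older and 2.18 (adjusted p = 0.00852) in the younger.

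Cbx7 (79915807 to 79932646) stood at 20.1 and 17.0 CPM in older HET mice, 12.8 and 15.7 CPM in the younger, 2.72, 1.74, 1.57 and 5.51 CPM in WT and 1.17 to 4.46 CPM in KO, again without overlap. Its difference was 2.25 (adjusted p = 0.207) over all HET mice, 2.43 (adjusted p = 0.0202) in the older and 2.07 (adjusted p = 0.179) in the younger. D730005E14Rik (79889532 to 79893138), which overlaps the start of Apobec3 in the table's coordinates, was listed at 0 in 3 WT libraries and all KO libraries and stood at 0.0656 CPM in the other WT library, at 1.33 and 1.54 CPM in older HET mice and at 4.17 and 4.36 CPM in the younger. The HET libraries did not overlap WT, and the younger HET mice were above the older. It rose in both age classes (adjusted p = 0.00778 in the older and 1.18e-04 in the younger) and was lower in the older than in the younger HET mice (−1.11, adjusted p = 0.0363). The sources used here do not give whether the authors counted by strand, so reads of D730005E14Rik and Apobec3 where they overlap cannot be told apart.

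The calls in the older class ended without either older mouse. Without the 363-day mouse the differences stayed at 1.98 for Apobec3, 1.87 for Rpl3 and 2.19 for Cbx7, with adjusted p of 0.209, 0.195 and 0.285, and without the 338-day mouse the adjusted p was 0.23 for each of the 3 genes. D730005E14Rik in the older class had an adjusted p of 0.195 and 0.227 without the one or the other. In the younger class Apobec3 and Rpl3 depended on the 141-day mouse, without which they stood at 2.20 and 1.69 (adjusted p = 0.453 for both), and all 3 calls held without the 143-day mouse. The younger-class calls of Apobec3 and Rpl3 also ended with a smooth muscle score in the model (adjusted p = 0.125 and 0.217) and, with that of D730005E14Rik, without the 2 libraries high in Fabp6 (adjusted p = 0.928, 0.928 and 0.0543), 1 of which is the 141-day mouse. D730005E14Rik passed without either younger mouse alone. The Cbx7 call in the older class also ended without WT amino 1 (adjusted p = 0.0647), WT amino 2 (0.0649) or WT hydroxy 1 (0.0523), or without the Fabp6 libraries (0.0876).

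Rpl3 was among the least abundant ribosomal protein genes of the table. Per kilobase of exon it stood at 0.105 CPM in WT and 1.41 CPM in HET, where the other ribosomal protein genes had a median of 1.48 CPM in WT, and 4 of the 57 lay below it in WT. The sources used here do not give how reads shared with other copies were counted, and 2 Rpl3 pseudogenes are named in the annotation, so the Rpl3 level is uncertain. As a list, the 48 tested cytosolic ribosomal protein genes had 23 members above and 25 below 0 between HET and WT, with a median of −0.01 beside 0.08 over all genes, and Rpl3 was the 1 member with every HET library above WT.

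The 250 bases before the first listed start of Apobec3 and of Cbx7 are shown because both stood above WT in every HET library. CpG dinucleotides are in capitals (RefSeq, GRCm38.p6, 5′ to 3′ on the strand of each gene). The Apobec3 window (chr15:79892158-79892407, plus strand) holds 12 CpG and 61.2% G or C, and the Cbx7 window (chr15:79932647-79932896, minus strand) 23 CpG and 64.8%, beside medians of 6 CpG and 52.0% over the same window of 27025 genes. The quartiles of the CpG count over those genes are 2 and 16, so Apobec3 lies between them and Cbx7 above. A second listed Apobec3 start (chr15:79894773-79895022) has 3 CpG and 48.0% in its window and is not printed. Rpl3 had no entry.
Apobec3: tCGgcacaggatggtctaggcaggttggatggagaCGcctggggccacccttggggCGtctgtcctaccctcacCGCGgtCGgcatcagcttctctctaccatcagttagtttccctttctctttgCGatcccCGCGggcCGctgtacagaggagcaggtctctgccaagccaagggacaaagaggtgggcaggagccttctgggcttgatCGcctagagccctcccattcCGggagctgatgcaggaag
Cbx7: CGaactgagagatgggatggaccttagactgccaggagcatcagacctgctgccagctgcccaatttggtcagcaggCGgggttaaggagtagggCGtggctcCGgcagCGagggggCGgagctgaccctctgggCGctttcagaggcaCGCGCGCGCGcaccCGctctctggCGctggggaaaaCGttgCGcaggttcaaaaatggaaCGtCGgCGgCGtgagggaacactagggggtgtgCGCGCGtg

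Other genes around Slc39a4 differed less. Within 5 Mb on either side, 160 genes were tested, of which 16, with the 4 above, had every HET library above WT (10%, beside 5.84% of all genes) and 7 every one below (4.38%, beside 3.81%). Their median log2 difference was 0.12, with a range of −1.19 to 2.25, and 9 genes lay beyond 1 in either direction. Over chromosome 15, 48 of 547 tested genes had every HET library above WT (8.78%, again beside 5.84%). Csf2rb, the beta chain shared by several cytokine receptors of myeloid cells, and its neighbour Csf2rb2, a mouse paralog specific to interleukin-3 signalling, stood at 8.61 to 15.3 and 2.01 to 5.45 CPM in HET against 4.05 to 6.81 and 0.990 to 1.37 CPM in WT without overlap. Both rose in the older HET mice, by 1.37 (adjusted p = 0.0304) and 1.42 (adjusted p = 0.0175), and stood at 0.75 and 0.72 in the younger (adjusted p = 0.209 and 0.208). Apol9a, an apolipoprotein L gene, stood lower in every HET library (−1.19).

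**Figure D2:**
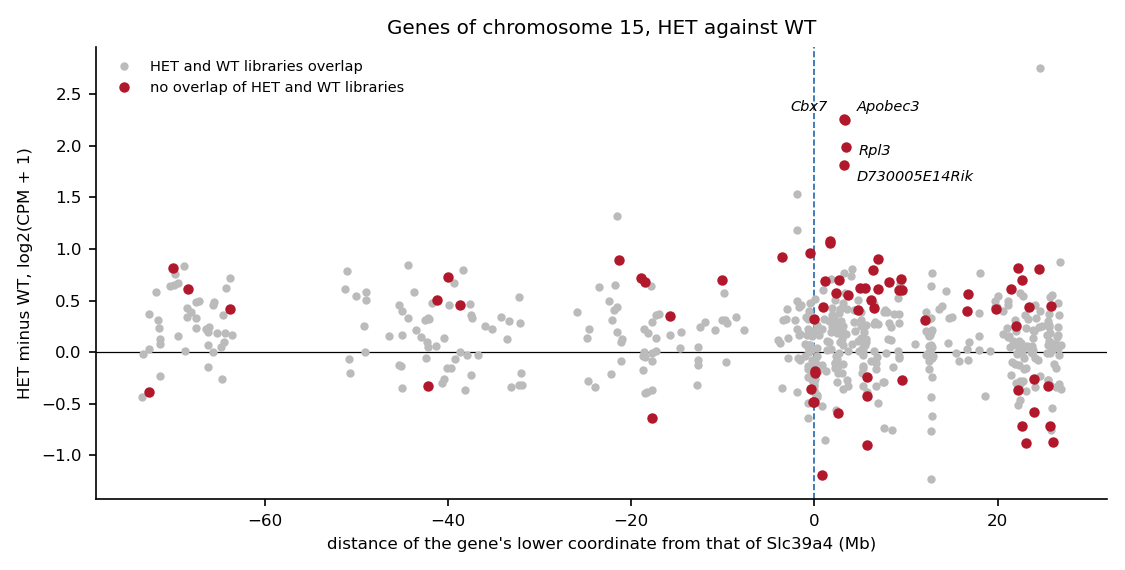
HET minus WT difference in log2(CPM + 1) of each of the 547 tested genes of chromosome 15 (vertical axis) by distance from Slc39a4 in Mb (horizontal axis, dashed line at Slc39a4). Red points are genes whose HET and WT libraries do not overlap, among them the group of Apobec3, Cbx7, Rpl3 and D730005E14Rik at 1.82 to 2.25, and grey points those that overlap, the highest being Nr4a1 at 2.76.

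After Rpl3 and Apobec3, the genes with the smallest p for HET against WT shared an adjusted p of 0.207 and none passed. Of those that follow, Smdt1 and Eppk1 lie on chromosome 15 too, 5.73 and 0.51 Mb from Slc39a4. Angptl4, a secreted inhibitor of lipoprotein lipase and a target of PPAR transcription factors, stood at 8.21 and 17.9 CPM in older HET mice, 6.56 and 7.60 CPM in the younger and 39.2, 72.03, 24.9 and 24.5 CPM in WT. All HET mice were below all WT mice, and the WT mice on the amino complex were the highest. The log2 difference was −1.85 (SE 0.31, limma adjusted p = 0.207), −2.70 within amino and −1.01 within hydroxy. KO mice, at 9.23 to 29.3 CPM, overlapped both.

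Csf1r, the receptor of macrophage colony-stimulating factor, stood at 66.7 and 83.3 CPM in older HET mice, 65.3 and 47.9 CPM in the younger and 30.4, 47.0, 33.9 and 31.8 CPM in WT. The lowest HET library exceeded the highest WT library by little (47.9 against 47.0 CPM), and the difference was 0.86 (SE 0.22, adjusted p = 0.207). Pdgfrb, a receptor of pericytes and fibroblasts, stood at 57.3 and 58.5 CPM in older HET mice, 39.1 and 37.7 CPM in the younger and 21.7 to 26.0 CPM in WT, with no overlap. Its difference was 0.94 (adjusted p = 0.207), and it rose in the older HET mice (1.23, adjusted p = 0.0304). That call ended with median-ratio scaling (1.02, adjusted p = 0.0741) and with gene length taken out (0.98, adjusted p = 0.0904).

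Crip1, a small zinc-binding LIM protein that is abundant in intestine, stood at 391 and 572 CPM in older HET mice, 283 and 1083 CPM in the younger and 1872, 1260, 1841 and 1205 CPM in WT. The HET mice were all lower, that of 143 days close to WT, and the difference was −1.56 (adjusted p = 0.207), or −2.20 within amino and −0.92 within hydroxy. Spink1, a secreted trypsin inhibitor, stood at 122 and 131 CPM in older HET mice, 80.5 and 377 CPM in the younger and 534, 420, 463 and 381 CPM in WT. Again the 143-day mouse nearly reached WT, and the difference was −1.58 (adjusted p = 0.207).

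Other lower genes at this rank were Lgals3 (galectin-3, −0.94), Calml4 (a calmodulin-like protein of the brush border, −0.97), Smdt1 (a regulator of the mitochondrial calcium uniporter, −0.90), Cib1 (a calcium- and integrin-binding protein, −0.85), Hsbp1 (which binds heat shock factor, −0.83), Edf1 (a ribosome-associated coactivator, −0.73), Txndc17 (a thioredoxin-like protein, −0.67), Pex16 (peroxisome assembly, −0.64), Ebpl (an emopamil-binding protein-like gene, −0.69) and Ubl5 (a ubiquitin-like protein of splicing, −0.66). Of the genes named here as lower, Crip1, Spink1, Lgals3, Smdt1, Cib1, Hsbp1, Edf1, Txndc17 and Pex16 belong to the shortest quintile by exonic length, whereas Ebpl belongs to the longest. Higher genes at the same rank were Dmp1 (an extracellular phosphoprotein of bone, 1.40), Col6a5 (a collagen VI chain, 1.11), Eppk1 (the cytolinker epiplakin, 0.96), Adgrl3 (a latrophilin, 0.92), Prrc2c (an RNA-binding protein, 0.77), Prr14l (0.77) and Lrp4 (a receptor for agrin, 0.70). Of these, Col6a5, Eppk1, Adgrl3, Prrc2c, Prr14l and Lrp4 belong to the longest quintile. With gene length taken out, Crip1 stood at −1.43, Spink1 at −1.33 and Angptl4 at −1.86, while Prrc2c stood at 0.43 and Lrp4 at 0.36, each with an adjusted p of at least 0.188.

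**Figure D3:**
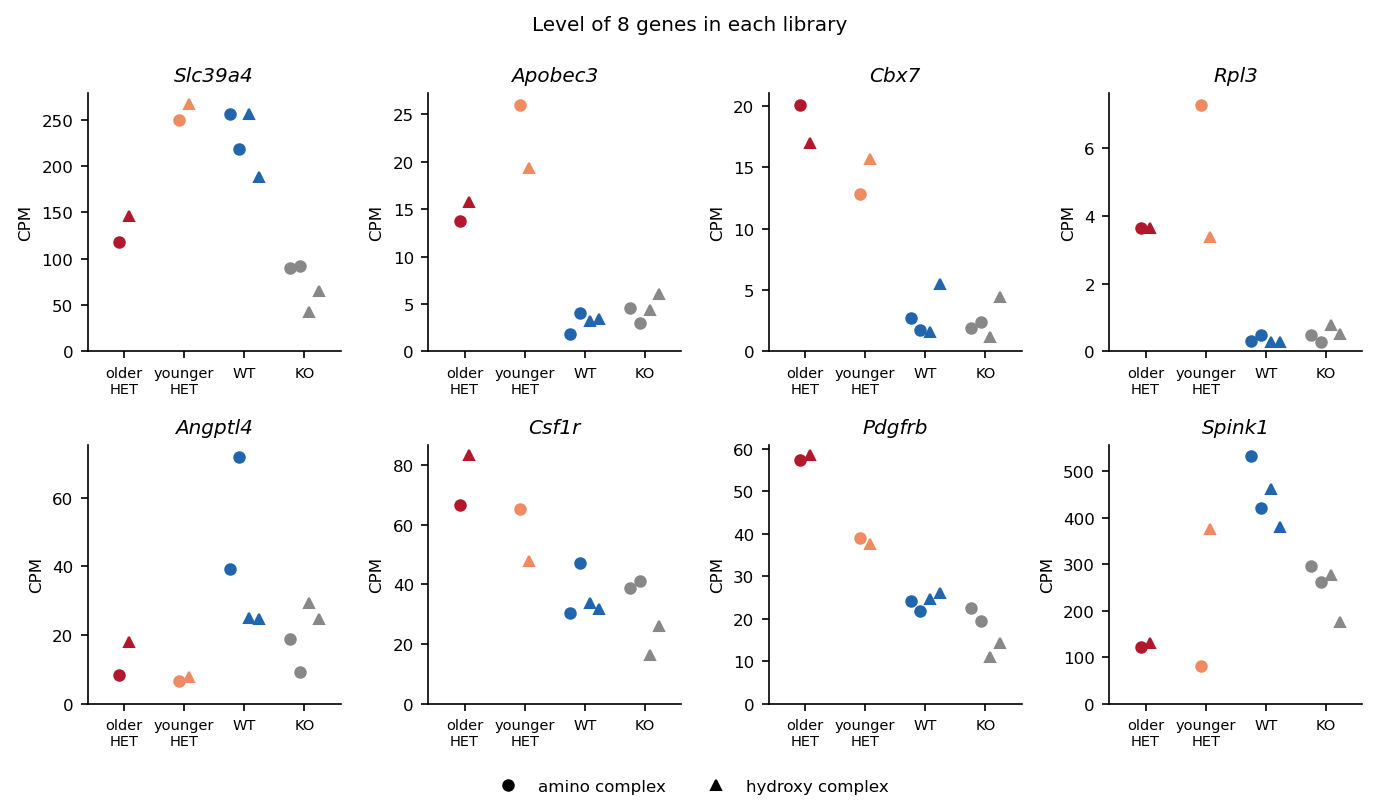
Level in CPM (vertical axis, from 0) of 8 genes in each library of the older and younger HET, WT and KO mice, circles amino and triangles hydroxy complex. Apobec3, Cbx7 and Rpl3 are high in the 4 HET mice alone, Angptl4 and Spink1 are lower in every HET than in every WT mouse, and Slc39a4 is lowest in KO, at 42.0 to 91.6 CPM.

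Pooled over both ages, macrophage and stromal gene lists had higher medians and respiratory chain and enterocyte lists lower medians in HET than in WT. No member was called in any of them. All 21 tested genes of macrophages and dendritic cells lay above 0, with a median of 0.43 beside 0.08 over all genes, and in 8 of them every HET library lay above WT, beside 5.84% of all genes. These were Csf1r, Adgre1, Mrc1, Cx3cr1, Itgax, Mpeg1, Fcgr1 and Csf2ra. With median-ratio scaling 6 did, Cd68 among them and Adgre1, Cx3cr1 and Csf2ra not, beside 4.55% of all genes. Mpeg1, the pore-forming protein perforin-2, stood at 69.95 and 109 CPM in older HET mice, 90.7 and 60.9 CPM in the younger and 29.6 to 56.0 CPM in WT. The summed level of the list was 443 to 653 CPM in HET and 289 to 408 CPM in WT, without overlap. Its median exonic length was 2.87 kb, below that of all genes, and with length taken out its median was 0.61.

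Fibroblast and matrix genes lay above 0 in 16 of 20, with a median of 0.62, and 6 of them, beside 5.84% of all genes, had every HET library above WT: Col3a1, Col6a1, Col6a2, Col6a3, Col14a1 and Pdgfra. Col3a1, a fibrillar collagen, stood at 224 and 286 CPM in older HET mice, 188 and 171 CPM in the younger and 114 to 163 CPM in WT. This list had a median exonic length of 6.82 kb, and with length taken out its median was 0.39. Of 14 endothelial genes 13 lay above 0 (median 0.50), and in 3 of them, Kdr, Flt1 and Lyve1, every HET library exceeded WT, beside the same 5.84%. As sums, only the older HET mice stood above WT in these 2 lists. The fibroblast and matrix sum was 2295 and 2571 CPM in the older, 1346 and 1415 CPM in the younger and 1097 to 1765 CPM in WT. The endothelial sum was 632 and 810 CPM in the older, 302 and 398 CPM in the younger and 308 to 421 CPM in WT.

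Intestinal stem cell genes lay above 0 in 11 of 12 (median 0.43, with length taken out 0.29). Lgr5, the receptor that marks crypt base stem cells, stood at 13.0 and 17.6 CPM in older HET mice, 21.3 and 9.82 CPM in the younger and 5.69, 7.93, 6.56 and 9.64 CPM in WT. All HET mice were above WT, 1 of them barely, and the difference was 0.93 (adjusted p = 0.207). Of 20 replication and mitosis genes 19 lay above 0 (median 0.39), and Mki67, Mcm5 and Mcm7 had every HET library above WT, beside 5.84% of all genes. With median-ratio scaling Mki67 alone of the list did (5%), close to the 4.55% of all genes. Mki67, the Ki-67 antigen of cycling cells, stood at 65.6 to 113 CPM in HET and 38.2 to 58.9 CPM in WT.

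Respiratory chain subunits lay below 0 in 25 of 26, with a median of −0.31, and in 10 of them every HET library lay below WT, beside 3.81% of all genes, or in 6 with median-ratio scaling, beside 4.31%. Cox5a, a subunit of cytochrome c oxidase, stood at 172 and 228 CPM in older HET mice, 115 and 248 CPM in the younger and 274 to 307 CPM in WT (−0.64, adjusted p = 0.207). Ndufb3, a subunit of complex I outside the list, stood at 42.3 and 43.6 CPM in the older, 21.9 and 36.2 CPM in the younger and 63.1 to 73.6 CPM in WT (−0.96, adjusted p = 0.207). Both were lower in every HET than in every WT library. The list's median exonic length was 2.29 kb, and with length taken out all 26 members lay below 0 with a median of −0.24.

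Enterocyte markers lay below 0 in 13 of 15 (median −0.38, median length 2.26 kb, −0.35 with length taken out) and lipid absorption genes in 18 of 20 (median −0.33). Fabp2, the intestinal fatty acid binding protein, stood at 1841 and 2604 CPM in older HET mice, 2752 and 2864 CPM in the younger and 2718 to 6746 CPM in WT, with overlap (−0.73, adjusted p = 0.399). Apoc3, an apolipoprotein of chylomicrons, stood at 403 and 420 CPM in the older, 229 and 916 CPM in the younger and 767 to 1662 CPM in WT, also with overlap (−1.32, adjusted p = 0.207). Brush border hydrolases stood at a median of −0.06, which turned to 0.05 with quantile normalization. The summed enterocyte list was 24828 to 37411 CPM in HET and 35022 to 48234 CPM in WT.

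Within each zinc complex the same comparison had 2 mice per genotype, and no gene passed. In limma 0 genes (0%) passed within amino, where 2128 had an unadjusted p under 0.05, and 0 (0%) within hydroxy, where 259 did. The difference between the complexes in the HET minus WT change gave 0 genes (0%), with 222 at an unadjusted p under 0.05. Apobec3 stood at 2.40 within amino and 2.11 within hydroxy, Rpl3 at 2.16 and 1.82, Cbx7 at 2.42 and 2.08, and Csf1r at 0.79 and 0.93. Angptl4, at −2.70 and −1.01, had an unadjusted p of 0.0211 for the difference between complexes, which did not pass after adjustment. Among lists, enterocyte markers had medians of −0.65 within amino and −0.15 within hydroxy, and respiratory chain subunits −0.48 and −0.15. Macrophage genes had medians of 0.51 and 0.55, and fibroblast and matrix genes 0.53 and 0.59, beside 0.14 and 0.02 over all genes.

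At the adjusted threshold the older HET mice differed from WT in more genes than the younger ones. That order did not hold in every refit that left out 1 HET mouse. Immediate early genes were among those that rose in the older mice. In limma 104 of 14001 genes passed in the older (0.743%), 101 higher (0.721%) and 3 lower (0.0214%). The younger HET mice differed in 6 (0.0429%), 3 higher (0.0214%) and 3 lower (0.0214%). An unadjusted p under 0.05 was reached by 3353 genes in the older and 2423 in the younger class. Older and younger HET mice differed from each other in 59 genes (0.421%), 58 higher (0.414%) and 1 lower (0.00714%) in the older. Both age classes were set against the same 4 WT libraries, and each has 1 mouse per complex. The median of all genes was 0.22 in the older and −0.05 in the younger class against WT, and 0.23 between the classes, but 0.02, −0.00 and −0.01 with median-ratio scaling. Age and anything else that differed between the older and the younger mice cannot be told apart.

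These counts depended on single mice. Against WT the count of 104 in the older class was 0 without the 363-day mouse, 6 without the 338-day mouse, 20 and 21 without WT amino 1 and WT amino 2, and 42 without WT hydroxy 1. It was larger, at 1800, when WT hydroxy 2 was left out and 251 when KO hydroxy 1 was. Between the age classes the count of 59 was 0 without the 363-day or the 143-day mouse, 6 without the 141-day and 10 without the 338-day mouse, 20 and 29 without WT amino 2 and WT amino 1, and 23 without KO amino 1. It became 1498 when WT hydroxy 2 was left out and 1166 when KO hydroxy 1 was. In the younger class the count of 6 was 1 without the 141-day mouse, which left D730005E14Rik, 3 without WT amino 2 and 369 without the 143-day mouse. With 1 mouse of a class left out, the remaining one is assumed to vary like the other groups.

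Immediate early genes are switched on within minutes of a stimulus, without new protein synthesis, by serum response factor and CREB acting on CArG boxes and cAMP response elements (CRE). Of 21 tested, 14 rose in the older HET mice against WT, beside 0.721% of all genes, and 11 rose against the younger HET mice, beside 0.414%. Egr1, a zinc finger transcription factor, stood at 874 and 657 CPM in older HET mice, 50.8 and 12.1 CPM in the younger and 7.94, 9.67, 12.1 and 27.1 CPM in WT. The older mice were far above every other library, KO included (10.6 to 22.7 CPM). The difference was 5.79 (SE 0.53, adjusted p = 7.07e-04) against WT and 4.86 (adjusted p = 0.0102) against the younger HET mice.

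Nr4a1, an orphan nuclear receptor that lies on chromosome 15, stood at 161 and 149 CPM in older HET mice, 39.1 and 4.64 CPM in the younger and 3.07 to 10.1 CPM in WT (4.44, adjusted p = 0.0199). Fos, a subunit of AP-1, stood at 474 and 460 CPM in the older, 175 and 83.3 CPM in the younger and 170, 160, 50.1 and 123 CPM in WT (2.03, adjusted p = 0.0361). Junb, its dimer partner, stood at 426 and 391 CPM in the older, 108 and 89.9 CPM in the younger and 81.7 to 141 CPM in WT (1.94, adjusted p = 0.0076). In each the older HET mice were above all other HET and WT mice. The younger HET mouse on the amino complex also lay above WT in Nr4a1 and, by little, in Fos, but within WT in Junb. The younger mouse on the hydroxy complex lay within the WT range in each. The summed immediate early list was 3630 and 3243 CPM in the older and 1284 and 892 CPM in the younger HET mice. It was 906 to 1061 CPM in WT and 791 to 1162 CPM in KO, so the younger mouse on the amino complex stood above both.

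Feedback genes of the same response moved likewise. Dusp1, a phosphatase of MAP kinases, stood at 111 and 100.6 CPM in older HET mice, 30.2 and 11.5 CPM in the younger and 11.7 to 18.7 CPM in WT (2.78, adjusted p = 0.00443). Zfp36, which destabilises AU-rich messenger RNAs, stood at 430 and 351 CPM in the older, 147 and 148 CPM in the younger and 131 to 158 CPM in WT (1.42, adjusted p = 0.00581). Btg2, an antiproliferative gene, stood at 328 and 298 CPM in the older, 88.0 and 47.6 CPM in the younger and 60.3 to 82.8 CPM in WT (2.20, adjusted p = 0.00177). The 7 other members that rose against WT were Cyr61 (3.62), Egr2 (3.06), Arc (2.75), Fosb (2.65), Egr3 (2.62), Nr4a2 (2.49) and Ier2 (2.31). Outside the list, Ptgs2, the inducible cyclooxygenase, rose from 1.58 to 2.88 CPM in WT to 15.8 and 31.6 CPM in older HET mice (2.80, adjusted p = 0.0142), with 11.5 and 3.12 CPM in the younger.

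The count of 14 fell to 0 without the 363-day mouse and to 4 without the 338-day mouse, and was 12 to 17 under the other alternatives. Without the 363-day mouse Egr1 stood at 5.64 with an adjusted p of 0.0515. Against the younger HET mice the count of 11 fell to 0 without the 363-day or the 143-day mouse or with a smooth muscle score in the model, to 3 without the 338-day mouse and to 6 without the 141-day mouse. The list had a median exonic length of 3.25 kb.

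Of the 14 risen genes 10 had an entry among the RefSeq promoters. A CArG box lay in the 250 bases before a listed start in 2 of the 10 (20%) and a CRE, searched as TGACGTCA on both strands, in 2 (20%), beside 1.62% and 1.77% of 27025 genes, and no window held both. A match is a description of the letters, not a binding site, and no match says only that the letters are not in the window. The 4 promoters are shown because they carry the motif letters, in capitals (GRCm38.p6, 5′ to 3′ on the strand of the gene). They are Btg2 (chr1:134079156-134079405, minus strand, CRE from 166 bases before the start), Dusp1 (chr17:26508473-26508722, minus strand, CRE from 143 bases), Egr2 at its 3rd listed start (chr10:67537619-67537868, plus strand, CArG box from 72 bases) and Zfp36 (chr7:28379229-28379478, minus strand, CArG box from 58 bases).
Btg2: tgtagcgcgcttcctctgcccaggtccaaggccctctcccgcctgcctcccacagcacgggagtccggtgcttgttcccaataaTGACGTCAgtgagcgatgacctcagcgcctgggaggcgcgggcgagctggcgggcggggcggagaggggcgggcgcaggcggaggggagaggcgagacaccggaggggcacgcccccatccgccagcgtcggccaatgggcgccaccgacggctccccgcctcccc
Dusp1: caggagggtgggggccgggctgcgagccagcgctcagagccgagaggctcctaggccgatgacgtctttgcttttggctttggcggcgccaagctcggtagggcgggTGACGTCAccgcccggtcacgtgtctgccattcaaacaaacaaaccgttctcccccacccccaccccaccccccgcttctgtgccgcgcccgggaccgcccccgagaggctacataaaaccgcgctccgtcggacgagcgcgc
Egr2: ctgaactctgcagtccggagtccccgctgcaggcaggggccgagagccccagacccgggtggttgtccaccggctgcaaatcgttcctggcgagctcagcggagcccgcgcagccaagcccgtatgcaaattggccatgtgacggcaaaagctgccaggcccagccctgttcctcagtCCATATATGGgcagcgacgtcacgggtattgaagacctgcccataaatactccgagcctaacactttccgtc
Zfp36: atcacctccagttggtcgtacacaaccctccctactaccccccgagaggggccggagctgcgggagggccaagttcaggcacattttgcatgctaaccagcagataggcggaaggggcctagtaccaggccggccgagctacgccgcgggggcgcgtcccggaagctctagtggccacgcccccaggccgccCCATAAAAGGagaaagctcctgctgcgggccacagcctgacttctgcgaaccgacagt

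**Figure D4:**
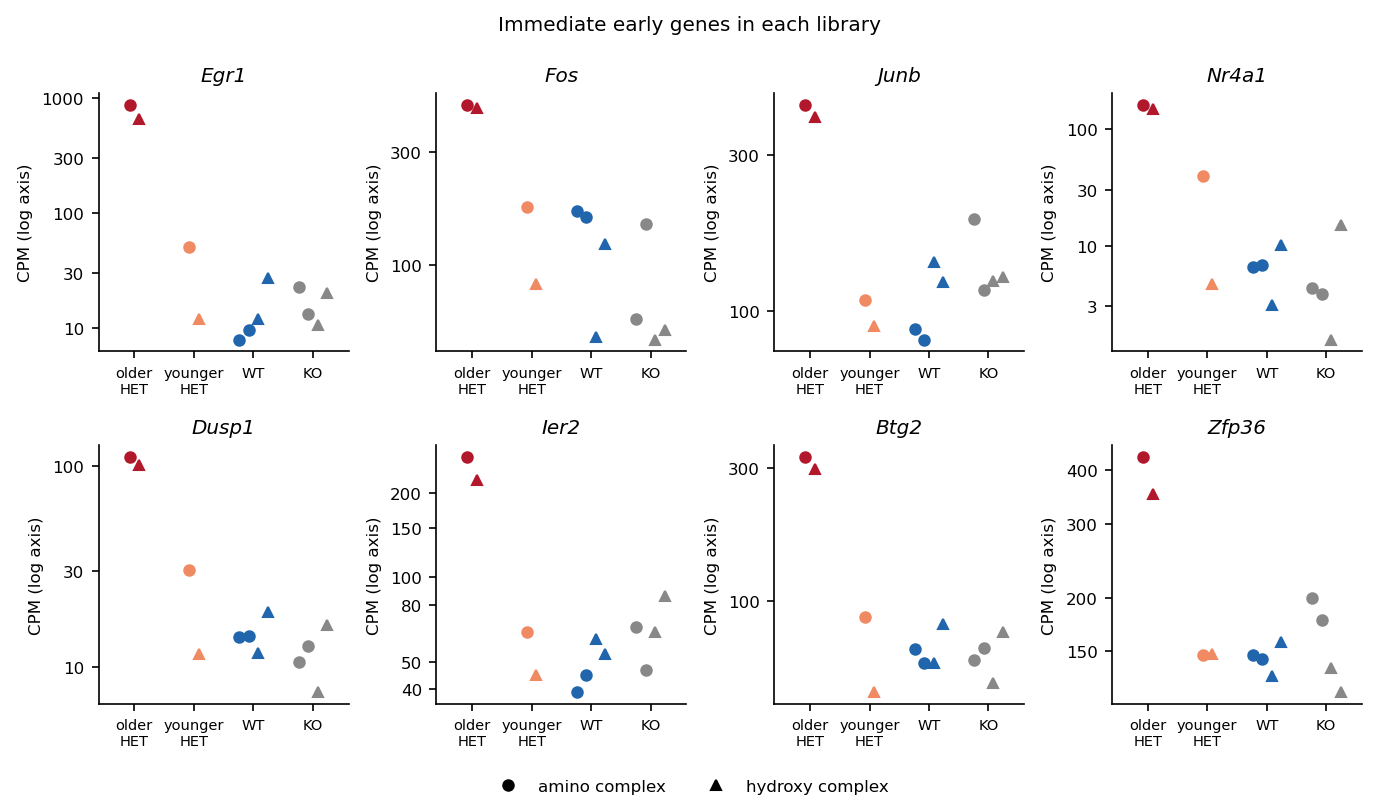
Level in CPM (log axis) of 8 immediate early genes in each library, circles amino and triangles hydroxy complex. In each panel the 2 older HET mice are the highest, with Egr1 at 874 and 657 CPM against 7.94 to 27.1 CPM in WT.

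Red blood cell genes were higher in the older HET mice too. Against WT 5 of 6 rose, beside 0.721% of all genes: Hba-a1 (2.39, adjusted p = 0.0233), Hba-a2 (2.22), Hbb-bs (2.15), Alas2, the erythroid enzyme of haem synthesis (adjusted p = 0.0303), and Hbb-bt (1.48). Hba-a1, an alpha globin, stood at 47.9 and 20.01 CPM in older HET mice, 6.83 and 7.11 CPM in the younger and 3.51 to 6.10 CPM in WT. The summed list was 89.9 and 155 CPM in older HET mice, 15.5 and 20.3 CPM in the younger and 15.1 to 32.8 CPM in WT, so the older mice stood apart. The globin copies share sequence and their single values are uncertain. The count of 5 was 0 without the 363-day mouse, WT amino 1 or WT amino 2, 1 without the 338-day mouse and 2 without WT hydroxy 1. Against the younger HET mice 3 rose, beside 0.414%. Whether blood in the tissue has a part in the other differences of the older mice was not tested.

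Smaller groups of genes rose in the older HET mice. Of the chromosome 15 genes, Deptor, an inhibitor of mTOR, stood at 83.8 and 76.3 CPM in the older, 46.5 and 28.7 CPM in the younger and 16.9 to 33.1 CPM in WT (1.87, adjusted p = 0.0175). Lynx1, a modulator of nicotinic receptors, stood at 12.2 and 11.99 CPM in the older, 2.88 and 2.78 CPM in the younger and 1.15 to 4.69 CPM in WT (2.06, adjusted p = 0.0287). Only the older mice lay above the WT range in Lynx1, whereas in Deptor the younger overlapped it in part. Stromal lists stood higher in the older class, fibroblast and matrix genes with 19 of 20 above 0 (median 1.02) and endothelial genes with 14 of 14 (median 0.98), against medians of 0.15 and −0.01 in the younger class.

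In each of these stromal lists 1 gene passed in the older class. Col14a1, a fibril-associated collagen of chromosome 15, stood at 34.3 and 37.1 CPM in the older, 21.3 and 22.5 CPM in the younger and 13.2 to 16.3 CPM in WT (1.24, adjusted p = 0.0284). Lyve1, a hyaluronan receptor of lymphatic endothelium, stood at 25 and 28.3 CPM in the older, 14.4 and 13.4 CPM in the younger and 11.2 to 12.7 CPM in WT (1.11, adjusted p = 0.0182). Neither gene overlapped WT in any HET mouse. Both calls ended with median-ratio scaling (adjusted p = 0.0636 and 0.0521), and that of Col14a1 ended with gene length taken out (0.95, adjusted p = 0.0833).

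The 3 genes that fell in the older HET mice included Mcfd2, a cofactor of glycoprotein export from the endoplasmic reticulum, and Calml4. Mcfd2 stood at 82.4 and 79.2 CPM in the older, 125 and 166 CPM in the younger and 161 to 204 CPM in WT (−1.22, adjusted p = 0.0142). Calml4 stood at 94.8 and 98.3 CPM in the older, 115 and 165 CPM in the younger and 187 to 260 CPM in WT (−1.23, adjusted p = 0.0203). In both genes the older mice were lowest. The other was 2200002D01Rik (−1.18).

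The younger HET mice differed from WT in Apobec3, Rpl3 and D730005E14Rik, described above, and in 3 genes of fat that fell. Adipoq, the adipocyte hormone adiponectin, stood at 0.276 and 0.516 CPM in the younger HET mice, 3.76, 6.16, 9.28 and 15.9 CPM in WT and 14.9 and 13.6 CPM in older HET mice (−2.66 against WT, adjusted p = 0.0140). Cfd, the adipocyte serine protease adipsin, stood at 0.184 and 2.73 CPM in the younger, 10.4 to 43.0 CPM in WT and 29.9 and 25.9 CPM in the older (−3.39, adjusted p = 0.0226). Car3, a carbonic anhydrase of fat and muscle, stood at 0.521 and 2.55 CPM in the younger, 11.98 to 56.8 CPM in WT and 56.3 and 75.9 CPM in the older (−3.60, adjusted p = 0.0140).

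In these 3 genes the younger HET mice lay below all WT mice. All 10 genes of the adipocyte and mesentery list lay below 0 in the younger class (median −1.55) and 2 passed as lower, beside 0.0214% of all genes. In the older class 9 of 10 lay above 0 (median 0.57) and none passed. Between the age classes 6 of 10 passed, beside 0.414%: Cfd, as above (3.78), Adipoq (3.45), Plin1 (2.96), Fabp4 (2.28), Lpl (2.23) and Upk3b (1.90), the last a marker of mesothelium. The count of 6 fell to 0 without the 363-day, the 141-day or the 143-day HET mouse or with a smooth muscle score, to 2 without the 338-day HET mouse or WT amino 2, and to 3 with gene length taken out. The 3 calls against WT ended without the 141-day mouse, and also without WT amino 2 (adjusted p of Adipoq 0.0581). They ended too with the smooth muscle score, with library weights, with pseudocount 5 and without the libraries high in Fabp6. That of Adipoq was also lost with the 8 HET and WT libraries alone and with gene length taken out. That of Cfd was also lost without WT hydroxy 1 (adjusted p = 0.0663) or WT hydroxy 2 (0.0762).

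Muscle and nerve genes lay on the same sides as fat, and 1 of them passed between the classes. All 18 gut smooth muscle genes lay above 0 in the older class (median 0.75), below 0 in the younger (median −1.36) and above 0 between the classes (median 2.22), with 0 called. Myh11, the smooth muscle myosin, stood at 2215 and 1918 CPM in older HET mice, 410 and 337 CPM in the younger and 888, 756, 436 and 1957 CPM in WT. The summed list was 11226 to 12508 CPM in the older, 2547 to 2996 CPM in the younger and 4617 to 12257 CPM in WT, so the younger mice lay below the WT range. Enteric neuron and glia genes lay above 0 in 18 of 18 in the older class (median 0.63) and in 0 of 18 in the younger (median −0.89). Gal, the neuropeptide galanin, rose between the classes (1.94, adjusted p = 0.0363).

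Pooled over both ages these lists nearly cancelled in HET against WT, at −0.22 for smooth muscle and −0.18 for neurons and glia. Defining markers of the absorptive, Paneth and goblet lineages were present in all libraries, such as Fabp2 above, Lyz1 at 372 to 3906 CPM and Muc2 at 469 to 1551 CPM. Of 9 pancreatic acinar genes 8 were under 1 CPM in all HET and WT libraries. The part of muscle wall, mesentery or the length of gut sampled in the differences between HET and WT was not tested beyond a model with a smooth muscle score, chosen after the data were seen. With that score 1034 genes passed for HET against WT (771 higher and 263 lower), and 0 between the age classes.

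Epithelial lists differed in direction. Paneth cell genes lay below 0 in 17 of 18 in the older (median −0.53) and above 0 in 14 of 18 in the younger (median 0.52), and goblet cell genes below 0 in 10 of 11 (median −0.55) and above 0 in 8 of 11 (median 0.28). Genes of MHC class II presentation lay below 0 in 8 of 9 in the older (median −0.31) and above 0 in 9 of 9 in the younger (median 0.64). The other way, tuft cell genes lay above 0 in 7 of 7 in the older (median 0.59) and below 0 in 5 of 7 in the younger (median −0.23), and enteroendocrine genes above 0 in 11 of 15 (median 0.39) and below 0 in 11 of 15 (median −0.15). Stem cell genes lay above 0 in 11 of 12 in the older (median 0.75) and 7 of 12 in the younger (median 0.22). None of these passed. Respiratory chain subunits stood lower in both classes, with medians of −0.25 and −0.40, and macrophage genes higher in both, with medians of 0.65 and 0.39. The summed MHC class II list ranged from 796 to 6008 CPM within WT alone, wider than the HET range of 1225 to 4605 CPM. The summed Paneth list ranged from 1145 to 5382 CPM within WT. It stood at 841 and 3521 CPM in the older and 5651 and 5178 CPM in the younger HET mice. The median of the Paneth list for HET against WT was −0.41 within amino and 0.34 within hydroxy.

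**Figure D5:**
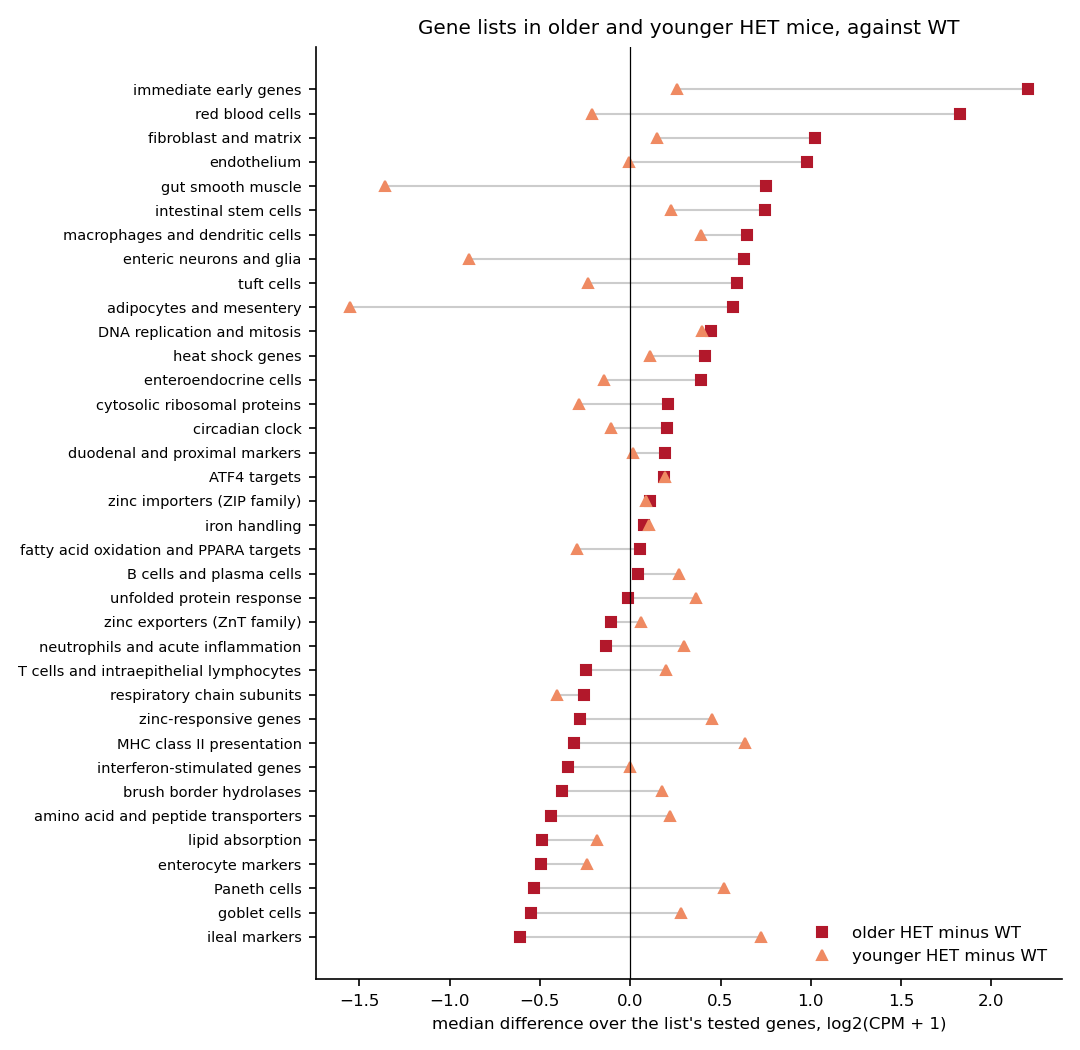
Median difference from WT in log2(CPM + 1) (horizontal axis) of 36 gene lists with 5 or more tested genes, squares for the 2 older and triangles for the 2 younger HET mice, joined by a grey line. Immediate early genes stand at 2.20 and 0.26, smooth muscle at 0.75 and −1.36 and adipocyte genes at 0.57 and −1.55, whereas respiratory chain subunits are below 0 and macrophage genes above 0 in both.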

How the data were processed

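Per the submitters' processing notes, Partek, TopHat2 and mm10 were used, and neither versions nor roles nor the use of strand are given in the sources used here. The authors deposited 1 table of CPM values for 17112 genes, with 0.0001 added to each value, which was read as 0 where alone. Of its symbols 23 had become dates and were restored by position. Steps between low values gave each library's depth, but only 93.5% to 95.1% of low values were whole reads within 0.05, so no count test was run. Genes that reached 1 CPM in 2 or more of the 12 libraries were kept, and log2(CPM + 1) was modelled in limma 3.58.1 (R 4.3.3), once with 6 group means and once with 4 classes (older HET, younger HET, WT, KO) and the complex as covariate. The scale understates changes of low genes. Adjusted p is Benjamini-Hochberg over all genes tested, threshold 0.05, two-sided. The fits were run on simulated data with a capped spread, no age differences and large changes in well-expressed genes. That run does not check smaller differences or mice of unlike age within a group. Exonic lengths are unions of GENCODE M21 exons, matched by symbol (98.3% of the table). Genes were named if given with the comparison, if among the 24 smallest p (HET against WT) or the 10 largest or smallest-p changes (age classes), if they had the smallest p of a list, or if they passed on chromosome 15. D730005E14Rik, 2200002D01Rik, Apol9a, Smim22, AA467197 and Ch25h were named after their values were seen. The members and the gene lists were chosen with earlier results of these data known.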

Additional observations from a re-analysis of the deposited data

Results flagged for a closer look

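In 56 groups of 4 libraries looked at, 3 held a library whose distance from the other 3 was large beside the group's range, where chance gives about 1 in 20 groups. Rpl3 stood at 7.27 CPM in the 141-day HET mouse and at 3.38 to 3.65 CPM in the other HET mice. Angptl4 stood at 17.9 CPM in the 338-day HET mouse and at 6.56 to 8.21 CPM in the others, below the WT range in both cases. Spink1 stood at 377 CPM in the 143-day HET mouse and at 80.5 to 131 CPM in the others. The difference from WT differed between older and younger HET mice in 59 genes, tested as the contrast of the 2 age classes.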

How the results depend on the processing

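No paired analysis was possible because the labels give no replicate numbers, and accession order only names libraries. For HET against WT the count of 0 became 1 with no filter on low values, 1 with library weights, 1 without the older and 24 without the younger HET mice, 3 with age as covariate, 1034 with a smooth muscle score and 0 to 109 with 1 library left out (109 without HET amino 1). Within amino it was 0 to 189. For older against younger HET the count of 59 became 136 with no filter, 19 with a mean of at least 5 CPM, 810 with pseudocount 5, 35 with median-ratio scaling, 22 with quantile normalization, 680 with the 8 HET and WT libraries alone, 1136 with library weights, 6 without the Fabp6 libraries, 0 with the smooth muscle score, 23 with exonic length taken out and 0 to 1498 with 1 library left out. For older HET against WT the count of 104 became 165, 59, 378, 53, 95 (78 higher and 17 lower), 139, 5667, 42, 30 and 49 in the same order, 55 with pseudocount 0.1, and 0 to 1800 with 1 library left out (0 without HET amino 1, 1800 without WT hydroxy 2). For younger HET against WT the count of 6 became 10 with quantile normalization, 3 with library weights, 0 without the Fabp6 libraries, 3 with the score and 1 to 369 with 1 library left out. The Fabp6, smooth muscle and length alternatives were chosen after seeing the data. Slc39a4 HET minus WT ranged from −58.8 to −8.85 CPM with 1 library left out, and its log2 difference turned to 0.18 without the older HET mice. The Mt1 difference of 0.07 turned to −0.013 with median-ratio scaling, −0.051 with quantile normalization, −0.32 without the younger HET mice and −0.38 without the Fabp6 libraries, and ranged from −0.16 to 0.29 with 1 library left out, below 0 without HET amino 2, HET hydroxy 2, WT amino 1 or WT hydroxy 1. That of Mt2 turned to −0.24 without the Fabp6 libraries and ranged from −0.045 (without WT hydroxy 1) to 0.62 with 1 library left out. Of the other recomputed values of named genes 2111 kept direction and call, 523 lost the call and 48 gained one. The cause of these changes was not tested. Depth limits genes near 0.1 CPM, and each age class has 2 mice.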

Other observations

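Besides immediate early genes, several genes that rose in older HET mice encode secreted or signalling proteins. Adamts1, a protease of proteoglycans, stood at 66.4 and 59.8 CPM in older HET mice, 24.1 and 7.71 CPM in younger ones and 5.06 to 10.5 CPM in WT (2.88, limma adjusted p = 0.0203). Sik1, a salt-inducible kinase, stood at 74.8 and 65.7 CPM, 28.4 and 8.74 CPM and 5.18 to 16.1 CPM in the same order (2.66, adjusted p = 0.0213). Apold1, an early gene of endothelium, stood at 22.9 and 25.9 CPM, 7.76 and 2.37 CPM and 1.34 to 4.40 CPM (2.74, adjusted p = 0.0304). In all 3 genes the older mice were above every other HET and WT library.

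Of 22 interferon-stimulated genes 19 lay below 0 in older HET mice (median −0.34) and 11 in younger ones (median 0.00). Ileal markers lay below 0 in 6 of 8 in older mice (median −0.61) and above 0 in 7 of 8 in younger ones (median 0.72). None of these passed, and the summed ileal list overlapped WT (597 to 1207 CPM) in 2 of 4 HET mice, with 1 older mouse below (544 CPM) and 1 younger mouse above (1420 CPM).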
